A study of Mus musculus with 4 samples.

Results

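The placental prolactin genes are a family of hormone genes that arose from the prolactin gene by repeated duplication in rodents, and 10 of them, read by 11 probes, are described here out of 17466 named genes on the array. They are Prl2c2, Prl2c3, Prl2c5, Prl3d1, Prl3a1, Prl8a9, Prl6a1, Prl7d1, Prl8a8 and Prl2a1. A probe belongs to a gene when the RefSeq transcript it was designed on is listed for that gene, and all probes of each gene were taken. The genes were put together with earlier results of the same comparison known, so their differences between passages are given as a description, with no test. The cells were mouse embryonic fibroblasts (MEFs), taken from embryos and kept in culture, where they stop dividing after some passages. One group was growing at passage 2 and the other had reached replicative senescence, a durable growth arrest, at passage 7. Both groups were grown in DMEM with 10% serum, penicillin and streptomycin, and no genotype, strain or treatment is given for either. The labels name 3 independent cultures whose RNA was pooled, and each passage was read on 2 one-colour arrays, so the arrays of a passage may be technical repeats and the spread between them may not be that between cultures. All values are from bulk RNA, in which a change in the share of cells that make a transcript and a change in the amount per cell cannot be told apart.

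Prolactin family hormones are small secreted proteins. In the mouse most of them are made by the trophoblast of the placenta, chiefly its giant cells and spongiotrophoblast, and some by the decidua of the uterus. The classical members, prolactin and the placental lactogens, bind the prolactin receptor and signal through JAK2 and STAT5. The non-classical members do not, and include the proliferins, which promote the growth of blood vessels and were first found in fibroblast lines stimulated with serum.

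Levels are given as a percentage of the array's 75th percentile of processed signal, which ranged from 402.3 (passage 7 replicate 2) to 1404 units. On that dim array the lowest signal well above background was 1.57% of the 75th percentile, against 0.473% to 0.714% on the other 3. The share of spots well above background, as flagged by the scanner software, was 65.8% to 72.7%, and none was saturated. All 15 fibroblast markers on the array, collagens and the platelet-derived growth factor receptor gene Pdgfra among them, were well above background on all 4 arrays. Of 13823 genes tested, 10.0% rose and 9.46% fell (limma, adjusted p under 0.05 and at least 2-fold), and the median gene was 0.20 higher at passage 7 on the log2 scale.

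The family divided into genes that were measured at passage 7 and genes whose probes read at the background. Of the 10, 5 were well above background on all 4 arrays, Prl8a9 on 3, Prl6a1 on 1, and Prl7d1, Prl8a8 and Prl2a1 on none. Those last genes were read by 1 probe each. Of the 2 probes of Prl3d1, 1 was at the background at passage 2 and the other was not. A background reading may therefore belong to the probe, which was not tested. The 7 probes that were well above background on both passage 7 arrays had higher values there than on either passage 2 array, with differences of 2.02 to 5.02 on the log2 scale. Of those 7, 6 were at least 4-fold higher on each passage 7 array than on either passage 2 array. Among all tested genes, 40.6% had both passage 7 arrays above both passage 2 arrays and 1.35% were so by at least 4-fold. Since the genes were chosen on this contrast, nothing is read from these shares.

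**Figure D1:**
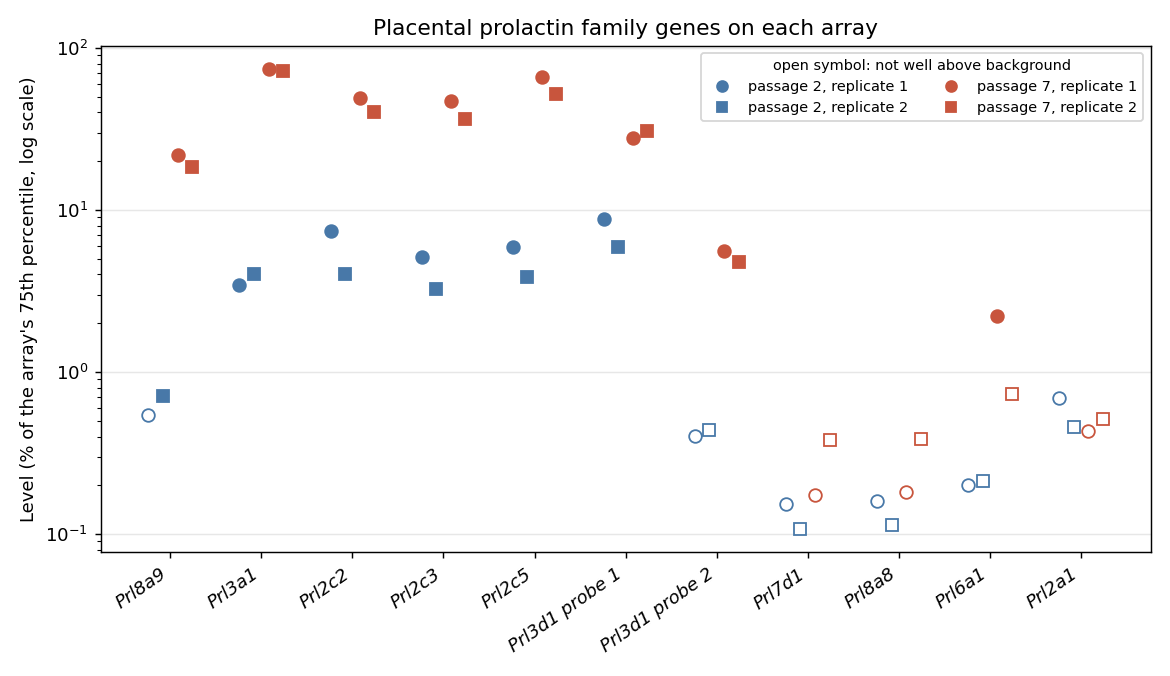
Level of each probe of the 10 genes on each array, as a percentage of the array's 75th percentile on a log axis; circles are replicate 1, squares replicate 2, blue is passage 2 and red passage 7, and open symbols were not well above background. Red lies above blue for the 7 probes that were well above background at passage 7, while Prl7d1, Prl8a8 and Prl2a1 show open symbols only.

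The 3 proliferin genes, Prl2c2, Prl2c3 and Prl2c5, were measured on every array. Proliferins bind the mannose 6-phosphate/IGF-II receptor, and act on endothelial cells. Prl2c5 stood at 5.95% and 3.88% of the 75th percentile at passage 2 and at 66.2% and 51.9% at passage 7. The passages did not overlap, and the passage 7 mean was 12.2-fold higher (3.61 ± 0.29 on the log2 scale, SE of the fit). For Prl2c3 the levels were 5.1% and 3.24% at passage 2 and 46.8% and 36.4% at passage 7, a difference of 10.1-fold (3.34 ± 0.30). Prl2c2, the first proliferin to be described, went from 7.46% and 4.04% to 49% and 40.3%, which is 8.09-fold (3.02 ± 0.35). All 3 probes were also alike in which array was brighter. Replicate 1 exceeded replicate 2 by 0.62 to 0.88 at passage 2 and by 0.28 to 0.36 at passage 7 on the log2 scale. These genes are near-identical copies, the sequences of the probes were not used here, and how much signal the 3 probes share was not tested.

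Prl2c3, Prl2c5 and Prl7d1 have almost the same sequence before their starts, yet the probe of Prl7d1 was at the background, which is why a pair of these windows is shown. Prl7d1 encodes the proliferin-related protein, which restrains blood vessel growth. Its signal was not well above background on any array, at 0.154% and 0.107% of the 75th percentile at passage 2 and 0.174% and 0.381% at passage 7. The windows are from RefSeq on GRCm38.p6, run from 250 bases before the start of the transcript to 50 after it, and are on the minus strand of chromosome 13 at chr13:12800030-12800329 for Prl2c3 and chr13:27716687-27716986 for Prl7d1. This is a later build than the one of the array design. They differ at 15 of 300 bases, shown in capitals.
Prl2c3: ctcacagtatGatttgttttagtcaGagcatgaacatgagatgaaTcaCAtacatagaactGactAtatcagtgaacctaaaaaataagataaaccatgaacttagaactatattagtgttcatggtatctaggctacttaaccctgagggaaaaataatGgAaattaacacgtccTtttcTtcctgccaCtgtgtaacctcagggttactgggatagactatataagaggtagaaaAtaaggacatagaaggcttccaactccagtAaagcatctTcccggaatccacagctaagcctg
Prl7d1: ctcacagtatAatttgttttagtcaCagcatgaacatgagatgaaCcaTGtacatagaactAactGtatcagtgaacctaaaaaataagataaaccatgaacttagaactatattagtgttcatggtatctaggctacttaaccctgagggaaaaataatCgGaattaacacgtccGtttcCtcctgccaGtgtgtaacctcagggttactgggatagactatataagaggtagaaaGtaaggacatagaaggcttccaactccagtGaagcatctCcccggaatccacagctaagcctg
The window of Prl2c5 was 95.3% identical to that of Prl2c3 and 94.0% to that of Prl7d1. Over the 231 pairs among 22 family genes with a window, the identity had a median of 51.1% and a range of 40.2% to 97.0%. No window of Prl2c2 was in the table.

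Prl3d1 encodes placental lactogen I, the classical member that takes over from pituitary prolactin in early pregnancy, and its 2 probes gave different sizes of change. The brighter probe went from 8.8% and 5.94% at passage 2 to 28% and 30.8% at passage 7, a difference of 4.07-fold (2.02 ± 0.26). The dimmer one was not well above background at passage 2, at 0.402% and 0.439%, and reached 5.59% and 4.77% at passage 7. It was at least 8.95-fold higher at passage 7, where the bound takes, for each passage 2 array, the higher of the probe's own value and the lowest signal well above background. Both probes separated the passages without overlap. Prl3d3, a further placental lactogen I gene, lay outside the 10 and was tested. It rose from 1.27% and 1.14% to 11.1% and 11.4%, by 3.22 ± 0.18 (9.34-fold, adjusted p = 0.005 in limma). With the normexp background correction its change of 2.53 did not pass (adjusted p = 0.56), and with quantile normalisation after normexp it was 0.97, under 2-fold. The probes of Prl3d1 and Prl3d3 may also share signal, which was not tested.

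Prl8a9 and Prl3a1, non-classical members known as prolactin-like proteins of the placenta, had the largest differences of the 10. Prl8a9 was at 0.544% and 0.713% of the 75th percentile at passage 2, with the first value not well above background, and at 22% and 18.5% at passage 7. The difference was 32.4-fold (5.02 ± 0.23) with 1 of the 2 passage 2 arrays measured, and it was smaller in several of the alternatives given further on. Prl3a1 was measured on all arrays, at 3.46% and 4.04% at passage 2 and 74.2% and 72% at passage 7. Its difference was 19.6-fold (4.29 ± 0.19). Their arrays within a passage were close, with SDs of 0.28 and 0.18 on the log2 scale for Prl8a9 and 0.16 and 0.03 for Prl3a1.

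The probes of the nearest relatives of Prl8a9 in name and sequence stayed at the background. Prl8a8 lies beside Prl8a9 on chromosome 13, and gave 0.161% and 0.113% at passage 2 and 0.181% and 0.385% at passage 7, none of them well above background. On the other side of Prl8a9, Prl8a1 gave 0.149%, 0.167%, 0.385% and 0.952%, also not well above background. The window of Prl8a9 was 77.3% identical to that of Prl8a8 and 80.9% to that of Prl8a1. Prl6a1, a prolactin-like protein of the decidua and placenta, was well above background on the passage 7 replicate 1 array alone. It gave 0.202% and 0.213% at passage 2 and 2.23% and 0.727% at passage 7. Calculated as for the dimmer probe of Prl3d1, its mean was 2.21-fold higher at passage 7. Since only 1 of the 2 passage 7 arrays was measured, this is not a lower bound. For Prl2a1, a further prolactin-like protein of the placenta, the values were 0.694% and 0.461% at passage 2 and 0.43% and 0.513% at passage 7, none well above background, and the passages overlapped.

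In the chromosome order of the family, genes with a measured level lay among genes at the background. The 3 proliferin genes form a locus of their own on chromosome 13, and the other 23 of the 26 family genes form the main cluster. Of the 15 family genes on the array outside the 10, only Prl3d3 and Prl2c1 entered the test, 10 were well above background on no array, and 3 on 1 array. Those 3 were Prl7b1, Prl7a1 and Prl5a1. Calculated as for Prl6a1, Prl7b1 and Prl7a1 were 1.86-fold and 1.31-fold higher at passage 7. With 1 passage 7 array measured, these are not lower bounds either. Prl2c1 had 10.8% and 7.57% at passage 2 and 11.9% and 19.7% at passage 7, a difference of 0.76 ± 0.34 (adjusted p = 0.16 in limma) that did not pass. Prl itself, which encodes pituitary prolactin, was not well above background on any array. No probe was matched to Prl3d2.

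**Figure D2:**
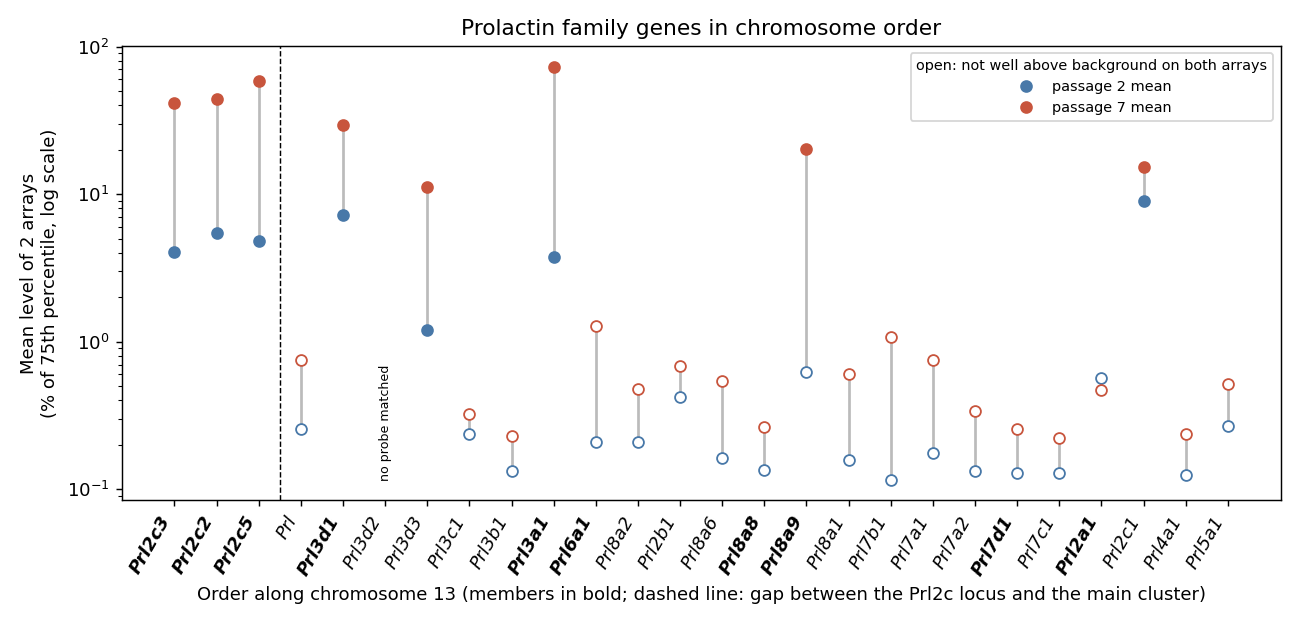
Mean level of the 2 arrays of each passage (percentage of the 75th percentile, log axis) for the 26 family genes in their order on chromosome 13, by the brighter probe; blue is passage 2, red passage 7, open symbols were not well above background on both arrays, and the dashed line separates the proliferin locus from the main cluster. Levels of different probes cannot be compared with each other; Prl3d1, Prl3d3, Prl3a1 and Prl8a9 have a filled red symbol with open ones beside or between them.

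Genes around the family changed in both directions. The reference gene order has no other protein-coding gene inside the main cluster. Of the 15 protein-coding genes on each side of it, 27 of 30 were on the array and 22 were tested, of which 4 rose and 4 fell (18.2% each, against 10.0% and 9.46% of all tested genes). The median change of these neighbours was 0.12. The genes next to the cluster were named after their values were seen. Next to Prl, Hdgfl1 was not well above background on any array and Nrsn1 had a change of 0.00 ± 0.27 (adjusted p = 1). On the far side, Sox4, a transcription factor of progenitor cells, had a change of 0.75 ± 0.17 (adjusted p = 0.041 in limma), short of 2-fold. The neighbours with the largest rises were Dcdc2a, a microtubule-binding protein (3.21 ± 0.53, adjusted p = 0.019), and Acot13, a mitochondrial thioesterase (2.00 ± 0.25, adjusted p = 0.011). Agtr1a, the angiotensin II receptor, rose by 1.27 ± 0.19 and Foxq1, a forkhead factor, by 1.11 ± 0.20 (adjusted p = 0.016 and 0.024). The falls were in Mboat1 (-2.63 ± 0.20, adjusted p = 0.0052), Gmnn, the inhibitor of DNA replication licensing (-1.46 ± 0.18, adjusted p = 0.011), Tdp2 (-1.16 ± 0.26, adjusted p = 0.037) and Ripor2 (-1.10 ± 0.19, adjusted p = 0.022). Dcdc2a ranged from 2.50 to 3.93 with 1 array left out, the lowest without passage 2 replicate 2 and the highest without passage 2 replicate 1. It was 1.64 by the mean of its probes, 1.42 in the authors' value table and 0.84, under 2-fold, with quantile normalisation after normexp. Foxq1 kept its call in 3 of 14 alternatives, with 0.51 in the authors' value table (adjusted p = 0.098), 0.82 by the mean of its probes and 0.94 with median scaling. Agtr1a kept its call in 8 of 14, with 0.97 in the authors' value table. Without either passage 7 array 3 neighbours passed, and Agtr1a, Foxq1, Gmnn, Tdp2 and Ripor2 did not (adjusted p-values of 0.051 to 0.18). Without the passage 2 replicate 2 array Tdp2 and Ripor2 did not pass (adjusted p = 0.087 and 0.055), and without passage 2 replicate 1 Foxq1 was under 2-fold (0.97). Around the proliferin locus, a set added after the values were seen, 26 of 30 neighbours were tested. None rose, against 10.0% of all tested genes, and 3 fell (11.5%, against 9.46%). At an unadjusted p under 0.05 in limma, 2 were higher and 5 lower. The nearest genes on the array, Ero1b on one side and Gpr137b on the other (beyond Gm7040, to which no probe was matched), had differences of 0.05 ± 0.24 and 0.40 ± 0.22 (adjusted p = 0.89 and 0.24).

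Receptor genes did not pass the test, while Socs2, Cish and Socs3, feedback inhibitors of JAK and STAT signalling, fell and others of that family did not pass. Prlr, the prolactin receptor, was at 4.01% and 2.45% at passage 2 and 3.27% and 2.84% at passage 7, with overlapping passages and a change of -0.04 ± 0.30 (adjusted p = 0.93 in limma). Igf2r, the receptor of proliferins, changed by 0.40 ± 0.25 (adjusted p = 0.28), and Stat5a and Stat5b by 0.30 ± 0.22 and 0.18 ± 0.23 (adjusted p = 0.36 and 0.58). No probe was matched to Ghr. Of 30 listed genes of the receptor and its signalling, 27 were tested; none rose and 4 fell (14.8%, against 9.46% of all tested genes), with 5 higher and 8 lower at an unadjusted p under 0.05, and the median change was 0.18. Socs2, a suppressor of cytokine signalling induced by STAT5, went from 121% and 140% to 17.3% and 19.2%. It fell by 2.84 ± 0.19 (7.14-fold, adjusted p = 0.0051). Cish and Socs3, of the same family of inhibitors, fell by 1.27 ± 0.22 and 1.25 ± 0.18 (adjusted p = 0.021 and 0.014), and the kinase Jak2 by 1.34 ± 0.33 (adjusted p = 0.046). Socs1 and Socs7, also of that family, changed by -0.53 ± 0.19 and 0.48 ± 0.18 (adjusted p = 0.11 for each in limma). Socs2 kept its call in 13 of 14 alternatives, all but the normexp correction (-1.68, adjusted p = 0.56). Socs3 kept its call in 10 of the 14, Cish in 7 and Jak2 in 6. Without the passage 7 replicate 1 array the other 3 did not pass (adjusted p = 0.084, 0.075 and 0.078 in the order Cish, Socs3, Jak2), nor without the passage 7 replicate 2 array (adjusted p = 0.1, 0.092 and 0.17), and the count of falls was 1 in each case. Jak2 also did not pass without the passage 2 replicate 2 array (adjusted p = 0.089), and with the normexp correction its change was -0.08.

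**Figure D3:**
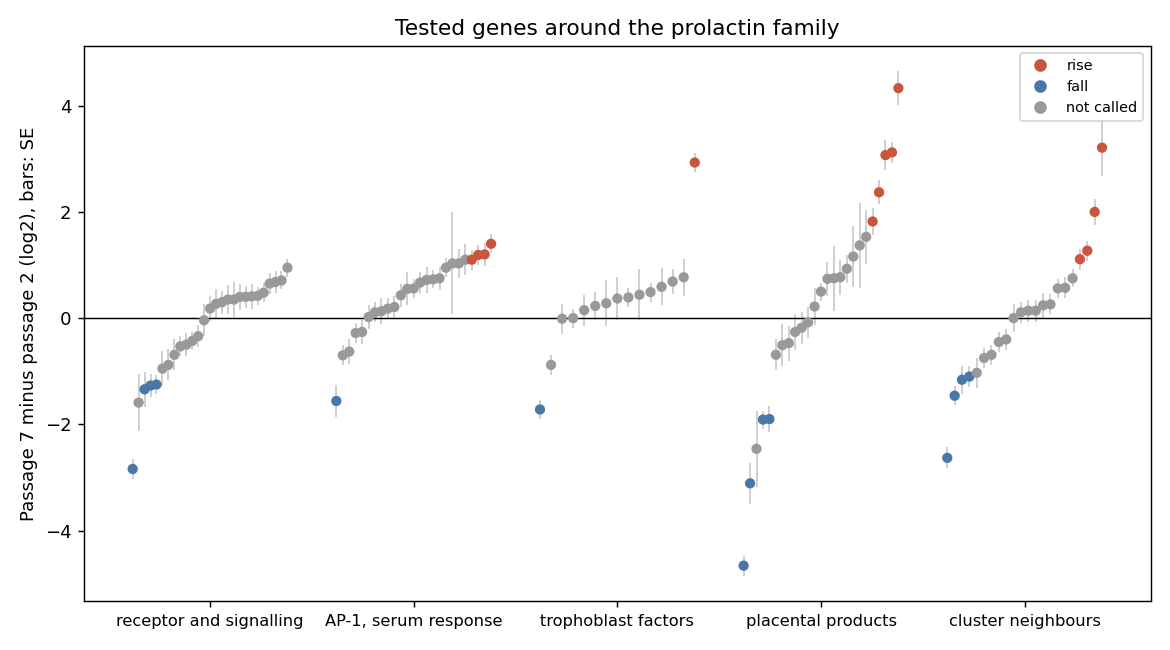
Change from passage 2 to passage 7 on the log2 scale for every tested gene of 5 lists, with bars for the SE of the fit; red points rose, blue points fell and grey points were not called. The receptor and signalling list has 4 blue points and no red one, and the trophoblast factors have 1 of each.

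AP-1, the dimer of FOS and JUN proteins that answers to serum and growth factors, is known to act on proliferin and placental lactogen I genes, so its genes and its motif were examined beside the family. Of 25 tested AP-1 and serum response genes 4 rose and 1 fell (16% and 4%, against 10.0% and 9.46% of all tested genes). At an unadjusted p under 0.05 in limma, 12 were higher and 3 lower. The median change was 0.56, against 0.20 for all tested genes. Atf3 rose by 1.40 ± 0.18, the FOS-family gene Fosl1 by 1.20 ± 0.21, the growth factor Ereg by 1.19 ± 0.19 and its receptor Egfr by 1.10 ± 0.19 (adjusted p = 0.012, 0.021, 0.017 and 0.022 in limma). Batf3 fell by 1.56 ± 0.31 (adjusted p = 0.028). Fos had a change of -0.63 ± 0.24 (adjusted p = 0.12), Jun of -0.26 ± 0.22 (adjusted p = 0.41) and Junb of 1.10 ± 0.29 (adjusted p = 0.052). None of the 25 passed in limma without the passage 7 replicate 1 array (7 at an unadjusted p under 0.05), and only Batf3 did without the passage 7 replicate 2 array. Without passage 2 replicate 1 Batf3 did not pass (adjusted p = 0.061) and 7 genes rose, and without passage 2 replicate 2 Fosl1 did not (adjusted p = 0.055). In the authors' value table Fosl1 and Egfr were under 2-fold (0.98 and 0.84), as was Egfr with median scaling (0.93).

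The AP-1 motif was searched as TGANTCA, with any base at N, which reads the same on both strands. This pattern is looser than the AP-1 consensus, TGACTCA or TGAGTCA. The pattern was present in 4 of the 5 windows that belong to genes of the 10 measured on both passage 7 arrays. In Prl2c3 the match was TGAATCA, which is not the consensus. The windows of Prl8a9, Prl3a1 and Prl3d1 are printed because the genes were higher at passage 7, with the motif in capitals. That of Prl8a8, which lacks it and was at the background, is printed with them. Windows that go the other way are not printed. Prl2c5 was measured on both passage 7 arrays and lacks the motif. Prl7a1 has it and was well above background on 1 array, and Prl2b1 and Prl7a2 have it and were so on none. On GRCm38.p6 the printed windows lie at chr13:27564557-27564856 (Prl8a9, minus strand), chr13:27259239-27259538 (Prl3a1, plus strand), chr13:27093939-27094238 (Prl3d1, plus strand) and chr13:27513168-27513467 (Prl8a8, minus strand).
Prl8a9: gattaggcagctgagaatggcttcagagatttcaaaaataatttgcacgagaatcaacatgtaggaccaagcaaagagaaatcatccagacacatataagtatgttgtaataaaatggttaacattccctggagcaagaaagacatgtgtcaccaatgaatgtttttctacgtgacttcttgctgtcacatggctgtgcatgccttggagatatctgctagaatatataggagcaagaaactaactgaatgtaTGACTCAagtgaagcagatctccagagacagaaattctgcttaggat
Prl3a1: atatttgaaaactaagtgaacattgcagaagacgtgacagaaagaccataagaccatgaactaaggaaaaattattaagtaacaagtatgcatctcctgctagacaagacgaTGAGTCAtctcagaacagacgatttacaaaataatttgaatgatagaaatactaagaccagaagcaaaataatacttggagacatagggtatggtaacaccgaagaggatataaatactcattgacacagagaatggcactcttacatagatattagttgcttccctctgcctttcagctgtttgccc
Prl3d1: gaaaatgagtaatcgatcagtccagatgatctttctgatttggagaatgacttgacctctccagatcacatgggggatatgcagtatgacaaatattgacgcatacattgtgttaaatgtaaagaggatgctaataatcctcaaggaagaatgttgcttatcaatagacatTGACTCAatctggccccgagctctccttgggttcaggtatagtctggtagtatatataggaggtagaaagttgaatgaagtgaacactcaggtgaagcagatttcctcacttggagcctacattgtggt
Prl8a8: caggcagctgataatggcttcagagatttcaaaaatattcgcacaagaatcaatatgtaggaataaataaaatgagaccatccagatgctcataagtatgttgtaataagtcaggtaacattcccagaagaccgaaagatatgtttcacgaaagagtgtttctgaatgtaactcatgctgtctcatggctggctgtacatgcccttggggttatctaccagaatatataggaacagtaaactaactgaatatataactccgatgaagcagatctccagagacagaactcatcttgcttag
The match began 138 bases before the start in Prl3a1, 79 before in Prl3d1 and 209 before in Prl2c3, and 3 bases after it in Prl8a9. Prl2c5 and Prl7d1, near-identical to Prl2c3 there, had no match. The windows of Prl6a1, Prl7d1, Prl8a8 and Prl2a1 had none either. Among all family genes on the array with a window, 5 of the 6 that were well above background on both passage 7 arrays had the motif, against 1 of 3 that were so on 1 array and 2 of 12 on none. Prl2c1 and Prl2c2 also had measured levels at passage 7, but without a window they are missing from this split. The windows of Prl3d1 and Prl3d3, counted apart among the 5, were 85.4% identical. The 10 genes were chosen with earlier results known, and whether the motif has a part in the levels was not tested. The motif was in 36% of family windows, against 7.81% of 32851 windows of the same length over all genes. On the strand of the gene the middle base was C in Prl8a9, Prl3d1 and Prl3d3. It was G in Prl3a1, which is the same site read from the other strand. In Prl2c3, Prl2b1 and Prl7a2 it was A, so these had the looser pattern only. Prl7a1 had a match with G and another with T. A second shared feature was TATATA or TATAAA from 40 to 20 bases before the start, which 19 of 25 family windows had, against 2.74% of all windows. That element was present in Prl8a8 and Prl7d1 as well. The 25 windows belong to 22 genes, since Prl3c1, Prl6a1 and Prl7d1 have 2 each. The 2 windows of Prl6a1 overlap, as do those of Prl7d1, so the family shares count some sequence more than once. Matches of the GATA motif AGATAA on either strand were in 48% of family windows and 11.2% of all, and of the STAT motif TTCNNNGAA in 36% and 8.3%. Only the AP-1 motif was split by the detection of the genes. Family windows are related by descent, so these shares are descriptions, and a match is not evidence of binding. The family genes well above background on 1 array or none were also read by 1 probe each.

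Of 15 tested transcription factors of the trophoblast, the tissue that makes these hormones in the placenta, 1 rose and 1 fell (6.67% each, against 10.0% and 9.46% of all tested genes). Eomes, a T-box factor of trophoblast stem cells that also marks natural killer cells, went from 3.21% and 3.22% to 23.7% and 25.4%. It rose by 2.93 ± 0.17 (7.63-fold, adjusted p = 0.005 in limma), and Ets2 fell by 1.72 ± 0.18 (adjusted p = 0.0081). Cdx2, of the same stem cells, had a change of 0.37 ± 0.40 (adjusted p = 0.52), and Tfap2c one of 0.77 ± 0.35 (adjusted p = 0.17). For Ascl2 of the spongiotrophoblast the change was 0.69 ± 0.24 (adjusted p = 0.098), and for Hand1, the giant cell factor, 0.59 ± 0.35 (adjusted p = 0.26). Elf5, Gcm1, Esx1 and Ovol2 were not well above background on any array. The summed level of this list was 2560% and 2120% of the 75th percentile at passage 2 and 1720% and 1780% at passage 7, and its lower value at passage 7 came from Ets2 (1120% and 1130% against 361% and 325%). The median change of the list was 0.37.

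Among other products of the placenta, 25 of 56 listed genes were tested, of which 5 rose (20%) and 4 fell (16%, against 10.0% and 9.46% of all tested genes), and 20 were well above background on no array. Those 20 include Tpbpb of the spongiotrophoblast and Synb of the syncytiotrophoblast, and the placental cathepsins Ctsq, Ctsr, Cts3, Cts6, Cts7 and Cts8. Other products were measured, and the examples were chosen after their values were seen. A further placental cathepsin, Ctsm, was well above background on 3 arrays, at 1.37% and 1.99% at passage 2 and 0.836% and 1.6% at passage 7 (-0.51 ± 0.40, adjusted p = 0.38 in limma). The pregnancy-specific glycoprotein gene Psg29 was so on all 4, at 67.9% and 42.2% against 49.8% and 78.4%. Tpbpa, the main spongiotrophoblast marker, was well above background on all 4 arrays, at 1.51% and 2.33% at passage 2 and 1.26% and 1.95% at passage 7. Its change was -0.26 ± 0.34 (adjusted p = 0.6 in limma). The rises were in Ctla2a, a cathepsin inhibitor (3.07 ± 0.29, adjusted p = 0.0068), Serpinb9b, a granzyme inhibitor (2.37 ± 0.23, adjusted p = 0.007), Pappa2, a protease of IGF-binding proteins (1.82 ± 0.25, adjusted p = 0.014), and Serpinb9e and Serpinb9f. The last 2, named after their values were seen, were at least 4.11-fold and 4.49-fold higher, since neither passage 2 array was well above background (adjusted p = 0.005 and 0.0052). In the authors' value table their changes of 0.65 and 0.94 were under 2-fold. The falls were in Slc38a4, an amino acid transporter (-4.66 ± 0.19, adjusted p = 0.005), in the keratins Krt8 and Krt18 of trophoblast and other simple epithelia (-1.90 ± 0.25 and -1.91 ± 0.17, adjusted p = 0.013 and 0.0066), and in Plac1, at least 2.12-fold lower (adjusted p = 0.011). Plac1 turned to 1.55 with the normexp correction and did not pass there (adjusted p = 0.58 in limma). Its change was -3.14 when the passage 2 replicate 2 array was left out. In the authors' value table it was -0.95, under 2-fold, and with quantile normalisation after normexp -0.34. With the normexp correction Krt8 and Krt18 changed by -0.19 and -0.29 and did not pass. The list's median change was 0.50, and its summed level was 3900% and 2600% at passage 2 and 4860% and 5690% at passage 7.

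Some markers of other cell types changed, in short lists. Of the tested keratinocyte markers 25% rose and 8.33% fell, against 10.0% and 9.46% of all tested genes. The share that fell was 25% of the leukocyte and natural killer cell markers, 20% of the pituitary genes and 20% of the fibroblast markers. Of 12 tested keratinocyte markers 3 rose and 1 fell, with a summed level of 735% and 564% at passage 2 and 1450% and 1510% at passage 7. Most of that increase was in Ivl and Sfn, and the median change of the list was 0.14. Of 12 tested leukocyte and natural killer cell markers none rose and 3 fell (none higher and 4 lower at an unadjusted p under 0.05 in limma), with sums of 252% and 210% against 125% and 199%. Of 5 tested pituitary genes none rose and 1 fell (none higher and 1 lower at an unadjusted p under 0.05), and Pou1f1, the factor that drives pituitary prolactin, was not well above background on any array. Of the 15 fibroblast markers 3 fell and none rose (5 higher and 6 lower at an unadjusted p under 0.05), and the median change was -0.53. Their summed level went the other way, from 62800% and 53200% to 75100% and 110000%, with the largest part in S100a4 (24500% and 15600% against 32600% and 51700%). The part of these shifts in the levels of the prolactin family was not tested.

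The tested genes outside the family whose values over the 4 arrays were most like those of the family were Gal, Grap, Cdkn2a, Nkain4, 4930486L24Rik, Sucnr1, Sytl1 and C4bp. Likeness was measured as the Euclidean distance between log2 values centred on each gene's mean and those of the mean of the 6 genes well above background at passage 7. The distances were 0.16 to 0.36. Gal, the neuropeptide galanin, was closest, at 1.78% and 1.29% at passage 2 and 19.2% and 18.6% at passage 7. Cdkn2a, which encodes the senescence proteins p16Ink4a and p19Arf, was at a distance of 0.24, with 57% and 36.5% against 635% and 504%. These genes were picked for this pattern, which is mainly the difference between passages, so no test is given for them.

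The size of the change in the prolactin genes differed between ways of processing, while its direction was the same in those tried. In all 83 values from 14 alternatives for the 6 measured genes, passage 7 was higher. The genes were chosen on this contrast, and the filters and the replicate block leave the estimate unchanged by construction. The count is therefore no separate support for the direction. With quantile normalisation Prl8a9 had a change of 4.85 and Prl3a1 one of 4.21, and with any 1 array left out they ranged from 4.82 to 5.21 and from 4.18 to 4.40. In the authors' value table the changes were 2.44 for Prl8a9, 3.26 for Prl3a1, 2.83 for Prl2c5, 2.44 for Prl2c3, 2.30 for Prl2c2 and 1.57 for Prl3d1. There Prl3a1, not Prl8a9, changed most. With the normexp correction Prl8a9 changed by 3.01 and Prl3a1 by 3.23, and with quantile normalisation after it by 1.53 and 2.35. With the mean of its 2 probes Prl3d1 changed by 2.82. With the normexp correction, probes not well above background on any array were also higher at passage 7, Prl2a1 by 1.95 and Prl7d1 by 2.02. With the 75th percentile scaling these differed by -0.27 and 1. Prl3d1 changed by 2.14 with normexp, so its direction there cannot be told apart from that of such probes. The cause of these differences was not tested.

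**Figure D4:**
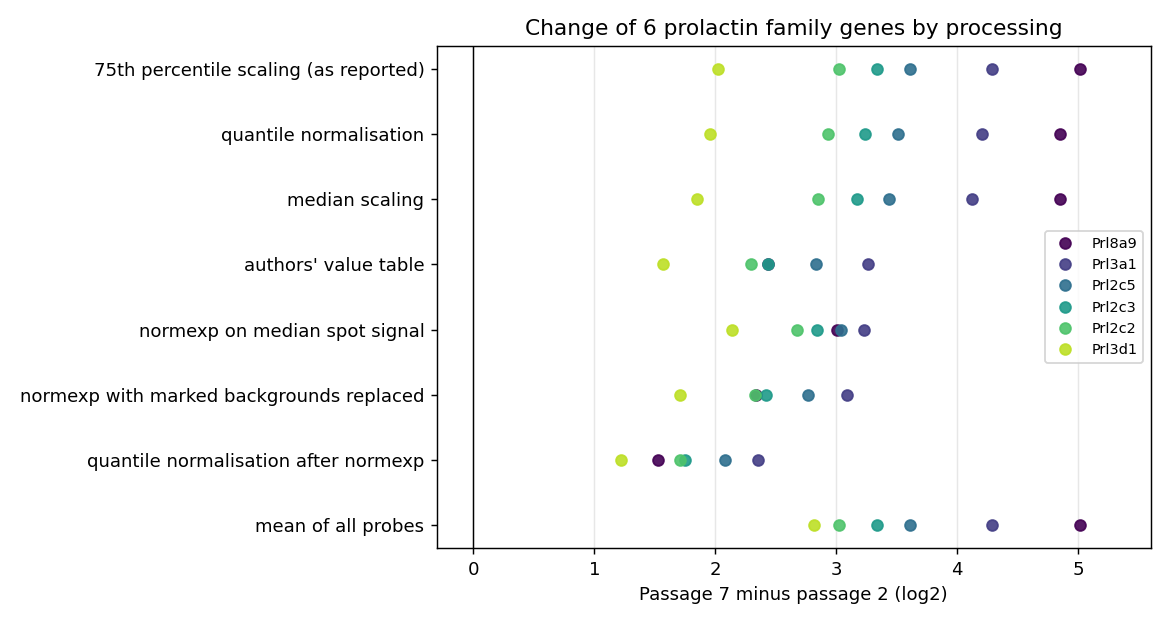
Passage 7 minus passage 2 on the log2 scale for the 6 genes measured at passage 7, under 8 ways of processing, 1 per row and 1 colour per gene. Every point lies above 0, and Prl8a9 ranges from 1.53 to 5.02 in these rows.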

How the data were processed

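Cy3-labelled cRNA from total RNA was hybridised to 4 one-colour Agilent arrays of a custom mouse design, 2 per passage, per the labels' protocols. Per the file headers, Feature Extraction 10.5.1.1 quantified the spots. The authors deposited each spot's background-subtracted processed signal, its median and background intensity, and flags. Their value table was deposited on a log2 scale, made by steps not given in the sources used here, and the submitters' processing notes name limma. Its columns correlated at 0.9986 or more with the log2 median intensity of the same array, so its scale and direction are those of the signal, while its centring (column medians 6.42, 6.41, 6.34 and 6.24) and background treatment stay unknown.

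Probes were named through their RefSeq accession with a gene table of GRCm38.p6. From log2 processed signals, the array's 75th percentile over non-control spots was subtracted; outlier spots (14 to 61 per array) were left out, spots of 1 probe averaged, and the brightest probe taken per gene. The 13823 genes that were well above background on each array of 1 passage or both entered 1 fit (R 4.3.3, limma 3.58.1, moderated by eBayes, no covariate, two-sided, Benjamini-Hochberg). The procedure was tested on simulated data. Changes are called at an adjusted p under 0.05 and at least 2-fold. Of the 10 prolactin genes, 6 passed the filter. The normexp correction was planned on mean spot signals and run on the median intensity, with an offset of 50. Members and lists were chosen with earlier results of these data known. Named genes are all family genes, up to 4 rises and 4 falls per list measured in both passages, 20 genes fixed whatever their values, and the 8 nearest profiles. The labels do not say whether the replicate numbers pair the samples, so the fit had no block. Deviations of same-numbered arrays had a correlation of -0.17, which cannot settle it, since effects of single arrays enter it too.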

Additional observations from a re-analysis of the deposited data

How the results depend on the processing

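With 2 arrays per passage, the array number and, for dim genes, the signal over background (2.94 on the passage 7 replicate 2 array and 4.28 to 5.05 on the others) limit every value. The 75th percentile scaling called 2692 genes, of which 51.4% rose. That share was 35.3% in the authors' value table, 41.2% when arrays were scaled by their median and 42.2% after quantile normalisation. The normexp correction called 0 genes in limma, with 666 at an unadjusted p under 0.05, and so 0 in each of the 6 lists (1 other prolactin family gene, 0 signalling genes, 0 AP-1 and serum response genes, 2 trophoblast factors, 4 placental products and 4 neighbours at that p). With no filter on dim probes 1772 genes passed, with marked backgrounds replaced 1201 and with quantile normalisation after normexp 1264; the last 2 were chosen after seeing the data. With the replicate block 1193 passed, and with the pairing crossed 3063 (also added later). The block left 1 signalling gene, 1 AP-1 and serum response gene and 4 cluster neighbours, against 4, 5 and 8 without it. Whether the array numbers pair the samples is not known. Without 1 array, the totals ranged from 1143 to 3461, with 1 to 6 signalling genes, 0 to 7 AP-1 and serum response genes, 2 to 3 trophoblast factors, 9 to 12 placental products, 3 to 8 neighbours and 1 other prolactin family gene. Median scaling called 7 signalling genes, and 3 AP-1 and serum response genes passed in the values of the authors. No filter gave 2 other prolactin family genes, 2 signalling genes, 2 AP-1 genes and 5 neighbours. Replaced backgrounds gave 2 signalling genes, 2 AP-1 genes, 4 placental products and 5 neighbours, and quantile normalisation after normexp gave 0 other prolactin family genes (2 at an unadjusted p under 0.05 in limma), 2 AP-1 genes, 5 placental products and 3 neighbours. With the normexp correction Batf3 turned to 0.59 and Plac1 to 1.55, and Plac1 was 0.37 with replaced backgrounds. The cause of these differences was not tested. Prl8a9 has no value when all 4 arrays must be well above background.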
